A study of Homo sapiens with 6 samples.

Results

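Long intergenic noncoding RNAs that carry a LINC number as their gene symbol were followed in A549 cells, a human lung carcinoma epithelial line, grown with or without amorphous calcium carbonate (ACC). A row of the gene table counted as a member where its symbol was LINC followed by digits alone and its normalized count averaged at least 10 over the 6 libraries. Members were therefore chosen by name and by their mean level over both groups, with no use of the difference between them. Of 24846 rows in the table, 626 carried such a symbol and 169 of these were members. The ACC group held 3 cultures kept for 8 passages in calcium-depleted DMEM/F12 medium that received 2 mM elemental calcium as ACC, and the Control group held 3 cultures kept for the same number of passages in complete DMEM/F12 medium. Both media contained fetal bovine serum and antibiotics. The source of calcium and its concentration changed together, and ACC also brought carbonate and its stabilizer, sodium tripolyphosphate. The paper reports that ACC raised the pH of acidified medium, and it gives no pH for these cultures. The effects of these differences cannot be told apart, and every culture came from the same wild-type line. The cultures of a group were triplicates of that line, so the p-values measure only the spread between these samples, which may be partly technical.

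A long intergenic noncoding RNA is transcribed from its own unit between protein-coding genes, is usually spliced and polyadenylated, and has no long open reading frame. Some act in cis on a neighbouring gene, where the RNA or the act of transcription changes the activity of the adjacent promoter, and others act in trans as scaffolds for chromatin complexes or as binding partners of proteins and microRNAs. A LINC number is a placeholder symbol that is often replaced when a function or a divergent coding neighbour becomes known, and the libraries here were made from polyadenylated RNA, so RNAs without a poly(A) tail were not captured. Many LINC-numbered RNAs are transcribed at low levels and in few cell types.

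The 6 libraries held between 21771645 and 24805486 reads in genes. Mitochondrial genes took 4.39%, 5.70% and 5.04% of normalized counts in the ACC libraries and 4.13%, 4.04% and 4.29% in the Control libraries, and the part of this difference in the results was not tested. All 9 epithelial and A549 markers had reads, with summed counts between 456418 and 486143 in ACC cells and between 497786 and 499299 in control cells, sums taken up mostly by ALDH1A1, AKR1B10, KRT8, KRT7 and KRT18. Of these 9, 5 were higher with ACC and 4 lower in the limma test described below, with CDH1 and AKR1C1 higher by more than 2-fold and a median log2 fold change of 0.62. The endothelial and fibroblast markers summed to between 12.5 and 19.5 counts in ACC cells and between 20.5 and 23.1 in control cells, with PECAM1 higher and PDGFRB and LUM lower, and DCN did not exceed 0.96. The leukocyte markers summed to between 328 and 401 counts in ACC cells and between 131 and 140 in control cells, almost wholly from CD14, while PTPRC did not exceed 0.96 and CD3E was at 0. The alveolar type II markers summed to at most 35.8 counts and NKX2-1 was at 0 in every library. In bulk RNA a smaller number of cells of one kind and less RNA per cell cannot be told apart.

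Of the 169 members, 158 were annotated as long noncoding RNA genes in GENCODE 44, 9 as transcribed pseudogenes and 1, LINC00672, as protein-coding, and the identifier of LINC00473 was not matched in that release. A newer symbol was carried there by 19 members, among them 7 now named as the divergent transcript of a coding gene. The median member had 37.2 normalized counts, 12.5 counts per kb of exon, 5 exon blocks and an exonic length of 3448.5 bases. The 12950 protein-coding genes above the same mean had a median of 637 counts and 113 counts per kb. Members thus ran at a low level for their length, with 72 of the 169 under 30 counts, 54 from 30 to 100 and 43 at 100 or more. The threshold of 10 lay inside a continuous range. LINC01772 at 10.6, LINC00689 at 11.2 and LINC00665 at 11.3 were just inside it, and LINC00304 at 9.88, LINC01783 at 9.86 and LINC00106 at 9.79 were just outside. Of the 457 rows outside, 144 had no read in any library.

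For 131 members RefSeq gave a promoter sequence on GRCh38.p14, running from 250 bases before the start of the gene to 50 bases after it, and 4 of these are shown because they start RNAs called higher with ACC or lie beside the start of a coding gene that was, and because the RefSeq start lay within 50 bases of the GENCODE start. Capitals mark the 50 transcribed bases. The first 3 belong to RNAs described below as higher with ACC, at chr17:79919107-79919406 on the plus strand, chr22:23433314-23433613 on the plus strand and chr2:174325777-174326076 on the plus strand. The fourth, at chr5:128083126-128083425 on the minus strand, belongs to LINC01184, now named SLC12A2-DT.
LINC01978: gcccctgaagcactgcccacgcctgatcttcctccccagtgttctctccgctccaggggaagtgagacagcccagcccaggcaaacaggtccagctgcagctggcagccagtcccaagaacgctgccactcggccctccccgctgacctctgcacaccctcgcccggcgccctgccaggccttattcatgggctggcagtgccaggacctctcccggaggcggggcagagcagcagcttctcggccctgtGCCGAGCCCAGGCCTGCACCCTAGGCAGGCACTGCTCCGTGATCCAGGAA
LINC01659: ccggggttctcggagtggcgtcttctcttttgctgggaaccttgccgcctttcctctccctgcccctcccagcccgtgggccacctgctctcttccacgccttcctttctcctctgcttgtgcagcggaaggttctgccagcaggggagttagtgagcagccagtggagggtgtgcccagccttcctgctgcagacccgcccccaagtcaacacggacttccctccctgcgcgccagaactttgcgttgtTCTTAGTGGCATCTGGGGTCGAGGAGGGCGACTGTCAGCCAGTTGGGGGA
LINC01305: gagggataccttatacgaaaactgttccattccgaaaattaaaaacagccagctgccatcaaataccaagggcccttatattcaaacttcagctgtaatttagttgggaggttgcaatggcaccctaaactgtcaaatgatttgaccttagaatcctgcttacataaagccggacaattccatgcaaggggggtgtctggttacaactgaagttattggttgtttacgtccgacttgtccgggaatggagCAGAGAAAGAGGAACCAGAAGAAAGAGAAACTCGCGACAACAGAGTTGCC
LINC01184: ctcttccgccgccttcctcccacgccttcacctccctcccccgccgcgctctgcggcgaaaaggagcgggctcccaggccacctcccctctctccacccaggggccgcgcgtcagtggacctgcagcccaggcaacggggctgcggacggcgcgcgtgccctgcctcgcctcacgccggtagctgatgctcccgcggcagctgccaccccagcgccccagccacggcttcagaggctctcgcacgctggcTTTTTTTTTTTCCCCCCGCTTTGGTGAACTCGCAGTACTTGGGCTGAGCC
Their GC content was 67.7% for LINC01978, 63.0% for LINC01659, 44% for LINC01305 and 70.3% for LINC01184, against a median of 61% over the 131 members and 58.7% over all 35116 promoters. LINC01184 held 29 CpG dinucleotides and LINC01305 held 8, and the median was 14 in members and in all promoters. The motifs TGACTCA (AP-1), TGACGTCA (CRE), CACGTG (E-box) and TATAAA (the core promoter box), searched on both strands, were found in none of these 4 sequences. TGACTCA was found in 6 of the 131 members' promoters (4.58%, against 4.95% of all promoters), TGACGTCA in 3 (2.29% against 1.85%), CACGTG in 13 (9.92% against 7.26%) and TATAAA in 12 (9.16% against 11.5%). None of the 4 motifs contains another, and a match or its absence describes only the letters in these windows.

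The first question was whether growth with ACC went with a different level of each RNA. A member was called where the adjusted p was at or below 0.05 (limma with Benjamini-Hochberg adjustment over 19318 genes), the fold change was at least 2 and at least 1 library had 30 reads. By this rule 7 members were higher with ACC (4.14%) and 8 were lower (4.73%), where 2.77% of all genes tested were called higher and 2.24% lower. Called in either direction were 15 members (8.88%), against 5.01% of all genes tested. Among the 15196 genes with a mean of at least 10, the shares were 3.53% higher, 2.84% lower and 6.37% in either direction. The called members with higher counts in ACC cells were LINC01978, LINC01659, LINC02582, LINC01305, LINC01376, LINC01146 and LINC01348, and those with lower counts were LINC00973, LINC01119, LINC01910, LINC01914, LINC00941, LINC02086, LINC02577 and LINC00707. A member whose mean reached 10 only through its higher group is favoured by such a rule. When the 156 members with a mean of at least 10 in each group were counted, 6 were called higher and 7 lower. The called members left out were LINC01978, at a mean of 6.25 in control cells, and LINC01910, at 9.12 in ACC cells.

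**Figure D1:**
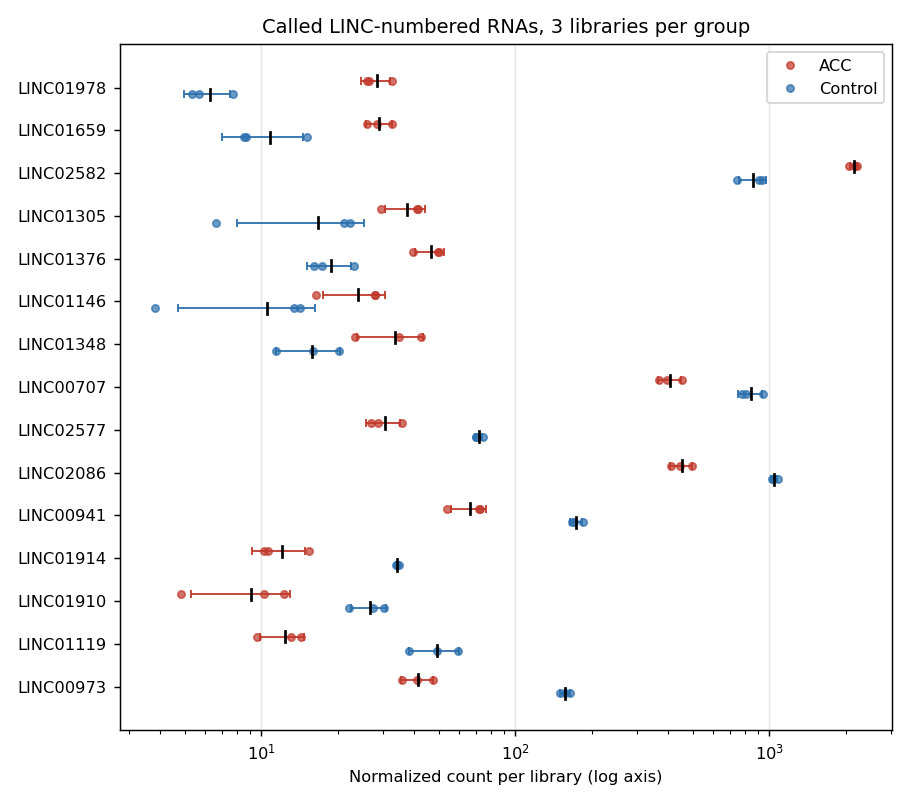
Normalized count per library on a log axis for the 15 called LINC-numbered RNAs, with 3 ACC libraries above 3 Control libraries in each row. Points are libraries, black ticks are means and bars are SDs. The groups do not overlap in any row, and LINC02582, at 2146 in ACC cells and 865 in control cells, lies far to the right of the other RNAs that were higher with ACC.

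LINC02582 had the highest mean count of all members and also the highest count per kb of exon, at 604 over the 6 libraries. It is a long noncoding RNA gene of 5 exon blocks at chr18:73324941-73349879 on the plus strand (GRCh38, GENCODE 44, as for all positions of genes). It had 2169, 2064 and 2204 normalized counts in the ACC libraries, against 913, 935 and 746 in the Control libraries. The lowest ACC library lay above the highest Control library, and each group was tight around its mean. The means were 2146 ± 73.0 in ACC cells and 865 ± 103 in control cells (SD, n = 3 each), a log2 fold change of 1.32 ± 0.07 (SE, limma adjusted p = 1.38e-11). Its nearest coding gene was CBLN2, a secreted synaptic organizer, 686 kb away, with means of 6.74 in ACC cells and 23.7 in control cells and a log2 fold change of -1.69 (limma adjusted p = 2.46e-04).

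The other 6 RNAs called higher with ACC were of low abundance, with no library above 50.1 counts. LINC01978 (ENSG00000262188, chr17:79919310-79926018, plus strand) had 26.1, 32.8 and 26.6 counts in ACC cells and 7.71, 5.33 and 5.70 in control cells. Its log2 fold change of 2.03 ± 0.29 was the highest among called members (limma adjusted p = 1.40e-05). LINC01659 (chr22:23433518-23435071, plus strand) had 26.1, 32.8 and 28.6 counts in ACC cells and 8.67, 15.1 and 8.55 in control cells, with a log2 fold change of 1.40 ± 0.28 (limma adjusted p = 4.96e-04). In both RNAs every ACC library was well above every Control library, with a gap between the groups wider than the range of the ACC libraries. LINC01376 (chr2:18986451-19348067, minus strand) spans a long stretch beside OSR1, a zinc finger gene of kidney development. It had 49.4, 39.5 and 50.1 counts in ACC cells and 17.4, 23.1 and 16.1 in control cells, again without overlap, with a log2 fold change of 1.26 ± 0.22 (limma adjusted p = 1.21e-04).

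LINC01305, LINC01146 and LINC01348 rested on less even libraries. LINC01305 (chr2:174326027-174330643, plus strand) lies 4.31 kb from SP9, a zinc finger transcription factor gene. It had 41.0, 41.4 and 29.7 counts in ACC cells and 21.2, 22.2 and 6.65 in control cells. Control replicate 3 was far below the other control cultures, and the log2 fold change of 1.26 ± 0.34 (limma adjusted p = 0.00576) became 0.74, under the 2-fold threshold, without that library. LINC01146 (chr14:88024519-88098025, plus strand), now named HISLA after its reported stabilization of HIF-1α in cells that take up macrophage vesicles, had 28.0, 27.9 and 16.4 counts in ACC cells and 13.5, 14.2 and 3.80 in control cells. ACC replicate 3 and Control replicate 3 were each the low library of their group. Its log2 fold change was 1.26 ± 0.39 (limma adjusted p = 0.0142), and the adjusted p became 0.0659 without ACC replicate 1, 0.0749 without ACC replicate 2 and 0.0716 without Control replicate 3, where the log2 fold change was 0.72. LINC01348 (chr1:235064927-235074220, minus strand) had 23.3, 42.4 and 34.8 counts in ACC cells and 20.2, 16 and 11.4 in control cells. The lowest ACC culture and the highest Control culture were close, and the log2 fold change of 1.02 ± 0.28 (limma adjusted p = 0.00549) was just past 2-fold. It was 0.84 without ACC replicate 2, 0.98 without ACC replicate 3 and 0.82 without Control replicate 3, and was then not called. LINC01978 and LINC01659 kept log2 fold changes of 1.93 and 1.31 without ACC replicate 2, the library in which they reached 30 reads, and without it they did not meet the read threshold.

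The RNAs called lower with ACC included more abundant ones. LINC00973 (ENSG00000240476, chr3:98981058-98983096, plus strand), a short RNA of 2 exon blocks reported in renal cell carcinoma, had 47.5, 35.6 and 40.9 counts in ACC cells and 157, 164 and 150 in control cells. The groups were separated by more than 100 counts, and the log2 fold change of -1.91 ± 0.14 was the lowest among called members (limma adjusted p = 2.44e-09). LINC01119 (chr2:46816697-46859009, plus strand) had 13, 9.63 and 14.3 counts in ACC cells and 49.2, 59.6 and 38 in control cells. All ACC libraries were below all Control libraries, with a log2 fold change of -1.90 ± 0.25 (limma adjusted p = 4.63e-06). LINC00941 (chr12:30755167-30802602, plus strand), reported to promote invasion in colorectal cancer by way of SMAD4, had 71.7, 53.9 and 72.6 counts in ACC cells and 170, 167 and 184 in control cells. These groups also lay far apart, with a log2 fold change of -1.39 ± 0.13 (limma adjusted p = 7.26e-08).

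LINC02086 and LINC00707 had the highest counts of the members called lower. LINC02086 (chr17:48646923-48707346, plus strand), 13.4 kb from the homeobox gene HOXB7, had 446, 497 and 410 counts in ACC cells and 1077, 1030 and 1027 in control cells. The control cultures were nearly equal, and the log2 fold change was -1.21 ± 0.06 (limma adjusted p = 2.99e-11). LINC00707 (chr10:6779549-6842906, plus strand), reported in lung adenocarcinoma, had 452, 369 and 397 counts in ACC cells and 778, 811 and 948 in control cells. The groups did not overlap, but the log2 fold change of -1.06 ± 0.08 (limma adjusted p = 3.68e-09) lay near 2-fold, and it was -0.99 without ACC replicate 2 and -0.97 without Control replicate 3, past the adjusted p but under the fold threshold.

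The remaining 3 called RNAs that fell had at most 74.2 counts. LINC02577 (chr7:106774955-106838480, plus strand) had 28.9, 27.0 and 35.8 counts in ACC cells and 74.2, 70.2 and 70.3 in control cells (log2 fold change -1.21 ± 0.17, limma adjusted p = 1.36e-05). LINC01914 (chr2:41931599-41934660, minus strand) had 10.3, 10.6 and 15.3 counts in ACC cells and 33.7, 34.7 and 34.2 in control cells (log2 fold change -1.45 ± 0.25, limma adjusted p = 1.06e-04). In both, the control cultures differed by less than 5 counts and every ACC library was lower. LINC01910 (chr18:70380140-70384591, minus strand) had 10.3, 4.82 and 12.3 counts in ACC cells and 22.2, 27.6 and 30.4 in control cells. ACC replicate 2 was the lowest, the groups did not overlap, and the log2 fold change was -1.53 ± 0.32 (limma adjusted p = 8.01e-04).

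Members just short of a call were examined after their values were seen. Those higher with ACC by 2-fold or more with under 30 reads in every library were LINC01559, LINC00284, LINC00957, LINC01091, LINC00706 and LINC00689, with log2 fold changes from 1.37 to 2.03, and those lower were LINC01117, LINC01460 and LINC01447, from -1.51 to -1.12. LINC01559 had 21.4, 13.5 and 24.6 counts in ACC cells and 2.89, 7.11 and 2.85 in control cells (limma adjusted p = 2.93e-04), while its nearest coding gene, GRIN2B, an NMDA receptor subunit 50.8 kb away, was lower at a log2 fold change of -2.40 (limma adjusted p = 5.15e-11). LINC01091 had 15.8, 13.5 and 22.5 counts in ACC cells and 5.78, 8.89 and 1.90 in control cells (log2 fold change 1.63, limma adjusted p = 0.00408), and SPRY1, an inhibitor of receptor tyrosine kinase signalling 135 kb away, was higher at 1.62 (limma adjusted p = 1.42e-07). LINC00284, now named NRAD1 and reported in breast cancer, had 18.6, 24.1 and 21.5 counts in ACC cells and 7.71, 3.56 and 5.70 in control cells (log2 fold change 1.79, limma adjusted p = 2.28e-04). The groups of all 3 RNAs were without overlap at low counts.

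With enough reads but just under 2-fold, LINC00543 had 63.4, 73.2 and 68.5 counts in ACC cells and 34.7, 31.1 and 36.1 in control cells, tight in both groups (log2 fold change 0.99, limma adjusted p = 7.94e-05). It was called by edgeR and by DESeq2, as was LINC02562, described below with its neighbour. LINC01547 had 173, 163 and 188 counts in ACC cells and 92.5, 87.1 and 93.1 in control cells, again far apart (log2 fold change 0.93, limma adjusted p = 9.47e-07).

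Without the fold and read thresholds, 49 members were higher (29%) and 24 were lower (14.2%) at the adjusted p, while 21.3% of all genes tested were higher and 21.9% lower, and among genes with a mean of at least 10 the shares were 25.7% and 26.5%. The share of members that passed in either direction was thus 43.2%, near the 43.3% of all genes tested and below the 52.2% of genes with a mean of at least 10, and the split between directions was uneven. When only the 156 members with a mean of at least 10 in each group were counted, 42 were higher and 21 lower. Of the 73 members past the adjusted p, 36 were higher and 13 lower by less than 2-fold, and another 6 were higher and 3 lower by 2-fold or more with under 30 reads in every library. The median log2 fold change over the 169 members was 0.14, compared with 0.03 over 1307 other long noncoding RNA genes and -0.01 over protein-coding genes. The 3 ACC libraries held 22415, 22393 and 22651 counts in members and the Control libraries 21398, 21321 and 20421, which was 0.101%, 0.101% and 0.102% of all counts in ACC cells and 0.0974%, 0.0967% and 0.0918% in control cells. Every ACC library was above every Control library in this sum. Without LINC02582 the sums were 20246, 20329 and 20447 in ACC cells and 20485, 20385 and 19675 in control cells, and the groups overlapped. Those sums still held abundant members called lower, such as LINC02086 at means of 451 in ACC cells and 1044 in control cells. They therefore do not show that the difference lay in LINC02582 alone.

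**Figure D2:**
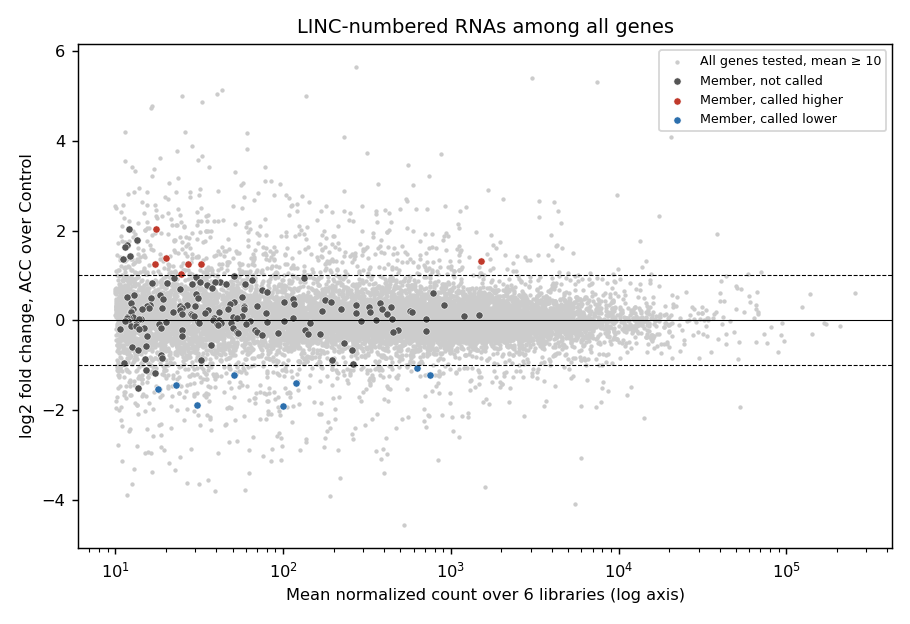
Log2 fold change of ACC over Control on the vertical axis against the mean normalized count over 6 libraries on a log axis. Grey points are the 15196 tested genes with a mean of at least 10, dark points are members not called, and coloured points are the 7 members called higher and the 8 called lower. Dashed lines mark 2-fold.

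The control libraries differed in how they ranked among members. Control replicate 3 gave the lowest of the 3 control counts in 88 of the 169 members (52.1%), where it did so in 35.6% of all genes with a mean of at least 10. Control replicate 1 gave the highest control count in 73 members (43.2%, against 32.8% of those genes). The ACC libraries were lowest in their group in 28.4% to 36.1% of members. Without Control replicate 3, 39 members were higher and 24 lower at the adjusted p and 5 and 8 were called. Without Control replicate 1, 43 were higher and 20 lower, and 14 and 8 were called. Without any 1 of the ACC libraries, 39 to 41 were higher and 22 to 24 lower. The part of the control libraries in the split was not tested further. For 50 members (29.6%) every ACC library was above every Control library, for 29 (17.2%) every ACC library was below, and for 90 the groups overlapped, where 25.5% of all genes tested were without overlap above and 25.9% below. Among genes with a mean of at least 10 these shares were 29.6% and 30.3%.

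The spread within groups was smaller at higher levels. A coefficient of variation from 3 libraries tends to lie below the true one, so these values cannot show whether the spread exceeded counting error. In the 72 members with a mean under 30 the median coefficient of variation within groups was 21.8%, where counting alone gives 25.2%. It was 13.2% against 14.2% in the 54 members from 30 to 100, and 6.41% against 5.85% in the 43 members at 100 or above. Among the 43 members with at least 100 counts, 19 were higher and 12 were lower at the adjusted p, and 1 and 3 of these were called. Of all 11179 genes tested at that level, 28.6% were higher and 30.8% lower at the adjusted p, and 2.53% and 1.98% were called.

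**Figure D3:**
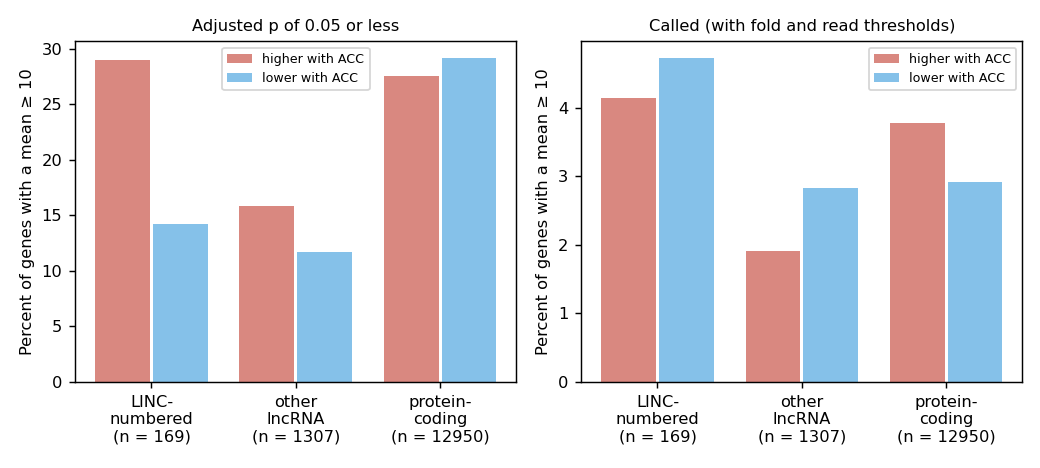
Percent of genes with a mean of at least 10 that passed an adjusted p of 0.05 (left) or were called (right), higher or lower with ACC, for 169 LINC-numbered RNAs, 1307 other long noncoding RNA genes and 12950 protein-coding genes. LINC-numbered RNAs reached 29% higher and 14.2% lower at the adjusted p, and protein-coding genes 27.5% and 29.2%.

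Compared with the other long noncoding RNA genes above the same mean, 8.88% of LINC-numbered members were called and 4.74% of the others, and 43.2% against 27.5% passed the adjusted p. Both classes had like levels, with medians of 37.2 and 30.5 counts. Protein-coding genes were called in 6.7% of cases and passed in 56.7%, at a median of 637 counts. No test was made between these classes.

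**Figure D4:**
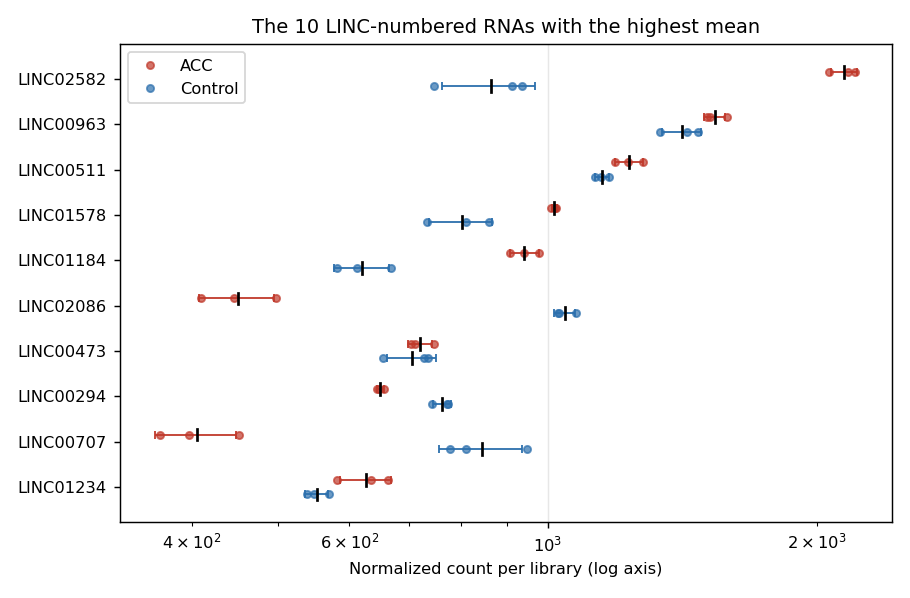
Normalized count per library on a log axis for the 10 LINC-numbered RNAs with the highest mean, with ACC above Control in each row. Points are libraries, black ticks are means and bars are SDs. LINC02582 and LINC02086 stand out by the distance between their groups, whereas the groups of LINC00473 overlap.

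The 10 members with the highest mean count held several RNAs with a reported function. LINC00963, reported in prostate cancer, had 1520, 1585 and 1506 counts in ACC cells and 1432, 1472 and 1334 in control cells, without overlap and with a log2 fold change of 0.12 (limma adjusted p = 0.0420). The adjusted p was above 0.05 with DESeq2 and when any 1 library other than Control replicate 2 was left out, reaching 0.158 without ACC replicate 2 and 0.167 without Control replicate 3. LINC00511, reported to bind the histone methyltransferase EZH2 in lung cancer, had 1190, 1231 and 1280 counts in ACC cells and 1172, 1131 and 1148 in control cells and did not pass (log2 fold change 0.10, limma adjusted p = 0.0892). LINC00473, a CREB-responsive RNA known from lung cancers without the kinase LKB1, had 703, 745 and 711 counts in ACC cells and 728, 734 and 654 in control cells. Its groups overlapped and the log2 fold change was 0.03 (limma adjusted p = 0.710).

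LINC01578, now named CHASERR, is reported to restrain its neighbour CHD2 in cis. It had 1022, 1009 and 1019 counts in ACC cells and 733, 811 and 860 in control cells, so that all ACC libraries were above all Control libraries by less than 2-fold (log2 fold change 0.35, limma adjusted p = 6.21e-05). CHD2 was also slightly higher, at means of 2067 in ACC cells and 1900 in control cells (log2 fold change 0.12, limma adjusted p = 0.0382). The 2 genes overlap on the same strand in the annotation, so their reads may not be fully separate. LINC00294 had 657, 645 and 648 counts in ACC cells and 774, 771 and 743 in control cells, a small and even fall (log2 fold change -0.23, limma adjusted p = 0.00118). LINC01234, reported in gastric and lung cancers, had 662, 582 and 635 counts in ACC cells and 539, 548 and 570 in control cells, a small difference (log2 fold change 0.18, limma adjusted p = 0.0215) whose adjusted p was 0.118 without ACC replicate 1, 0.0785 without ACC replicate 3, 0.0613 without Control replicate 1 and 0.0559 without Control replicate 2. With DESeq2 the adjusted p of LINC01234 was 0.0616. Per kb of exon, LINC02582 at 604 counts was followed by LINC00888 at 423, which has a short annotated exonic length of 421 bases. Reads were counted on an earlier annotation than the one that gave this length, so its place may reflect the annotation. LINC00888 was higher with ACC by 0.46 on the log2 scale (limma adjusted p = 0.00171).

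A list of 47 LINC-numbered RNAs with a reported regulatory role had 41 with a row, 36 tested and 28 members. At the adjusted p 7 were higher and 7 lower, 1 was called higher and 3 lower, and the median log2 fold change was 0.07. Of all genes tested, 43.3% passed the adjusted p and 5.01% were called, so the share of this list that passed was near that of genes at large. The share called, from only 1 higher and 3 lower of 36 tested, was above that of genes at large. The falls of LINC00973, LINC00941 and LINC00707 are given above. LINC00857, reported in lung adenocarcinoma, had 187, 196 and 215 counts in ACC cells and 301, 322 and 323 in control cells. It fell without overlap by 0.66 on the log2 scale (limma adjusted p = 2.31e-06), under 2-fold. LINC00662 fell by 0.27 (limma adjusted p = 0.00562, and not passed without ACC replicate 3, where the log2 fold change was -0.19). LINC01089, with overlapping groups, fell by 0.32 (limma adjusted p = 0.0382), and its adjusted p was 0.136 without ACC replicate 1, 0.129 without ACC replicate 3, 0.195 without Control replicate 1 and 0.0546 without Control replicate 2. For LINC01089 it was also 0.0535 in limma with no filter on counts and 0.105 with DESeq2. Among those higher, LINC01138 had a log2 fold change of 0.86 (limma adjusted p = 0.00686) and LINC00174, whose groups overlapped, of 0.48 (limma adjusted p = 0.0144). The adjusted p of LINC01138 was 0.0540 without ACC replicate 2, and that of LINC00174 was 0.104 without ACC replicate 2, 0.0574 without ACC replicate 3 and 0.0693 without Control replicate 3. Of 10 names reported to encode small proteins, 3 had a row and 2 were members, LINC00467 and LINC01116. LINC00467 had 238, 198 and 224 counts in ACC cells and 183, 146 and 171 in control cells (log2 fold change 0.40, limma adjusted p = 0.00374). LINC01116 went the other way, with 155, 133 and 127 counts in ACC cells and 255, 256 and 251 in control cells (log2 fold change -0.88, limma adjusted p = 4.24e-07).

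Named long noncoding RNAs without a LINC number were set beside the members. Of 48 tested, 15 were higher and 13 lower at the adjusted p, and DRAIC was called higher while NKILA, MIR503HG and SNHG14 were called lower. Among all genes tested 21.3% were higher and 21.9% lower at the adjusted p, and 5.01% were called. NKILA, an inhibitor of NF-κB signalling, had 75.5, 79.0 and 70.6 counts in ACC cells and 457, 413 and 452 in control cells, with a log2 fold change of -2.54 (limma adjusted p = 1.49e-13), below that of every member. NEAT1, the scaffold of paraspeckles, had 6761, 10897 and 8591 counts in ACC cells and 6306, 4588 and 4098 in control cells. It was variable within both groups and higher with ACC (log2 fold change 0.81, limma adjusted p = 8.13e-05).

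The second question was whether members moved with the coding genes beside them. For 168 members a nearest protein-coding gene among those tested was found, at a median distance of 11.7 kb, and 30 overlapped it, 23 of them on the opposite strand. No source used here says if strand was used in counting, so the reads of overlapping genes cannot be told apart. Both the member and the neighbour passed the adjusted p in the same direction in 27 pairs and in opposite directions in 12, and in 34 pairs the member alone passed. Over all pairs the log2 fold changes had a Pearson r of 0.04 and a Spearman rho of 0.13 (n = 168 pairs, measured in the same libraries). In the 30 overlapping pairs r was 0.37 and rho 0.39, in the 32 pairs up to 5 kb apart 0.27 and 0.20, in 36 pairs from 5 to 20 kb 0.05 and -0.05, in 41 pairs from 20 to 100 kb 0.02 and 0.20, and in 29 pairs beyond 100 kb -0.14 and 0.04.

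**Figure D5:**
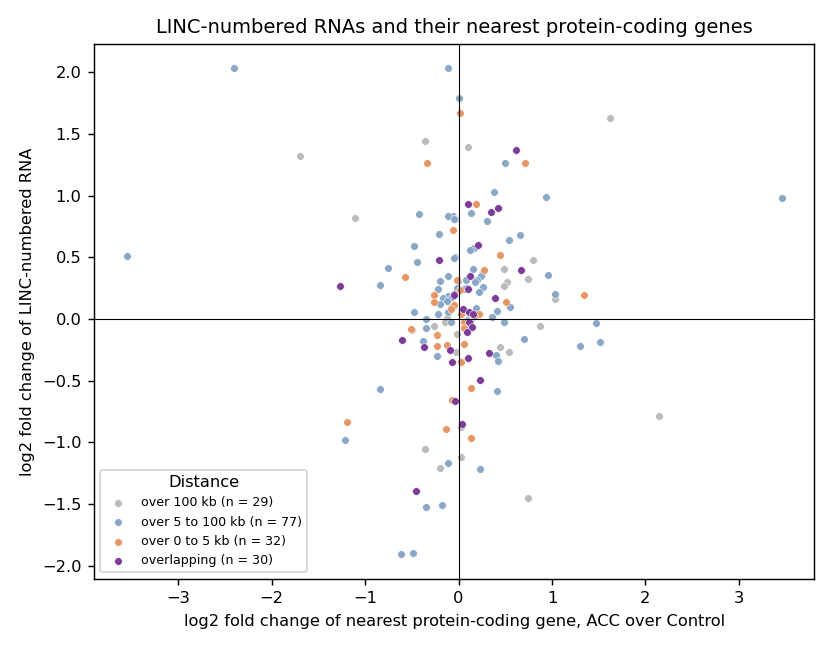
Log2 fold change of each LINC-numbered RNA on the vertical axis against that of its nearest protein-coding gene on the horizontal axis, ACC over Control, for 168 pairs coloured by the distance between the genes. Points do not line up along a diagonal, and Pearson r is 0.04 over all pairs and 0.37 in the 30 overlapping pairs.

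Of the 15 called members, 9 had a neighbour that passed in the same direction, 5 in the opposite direction and 1, LINC01659, beside BCR at 115 kb, had a neighbour that did not pass (log2 fold change 0.10, limma adjusted p = 0.114). Of protein-coding genes with a mean of at least 10, 27.5% were higher and 29.2% lower at the adjusted p. No called member within 100 kb of its neighbour had a neighbour that was also called. LINC01305 and SP9 were both higher, with SP9 at means of 254 in ACC cells and 155 in control cells (log2 fold change 0.71, limma adjusted p = 5.02e-06). LINC01119 and SOCS5, a suppressor of cytokine signalling 36.5 kb away, were both lower, with SOCS5 at 929 in ACC cells and 1304 in control cells (log2 fold change -0.49, limma adjusted p = 5.92e-08). LINC00973 and DCBLD2, a transmembrane receptor gene 79.4 kb away, were both lower, DCBLD2 with a log2 fold change of -0.61 (limma adjusted p = 1.44e-11). LINC00941 overlaps CAPRIN2 on the opposite strand, and CAPRIN2 was also lower, at 431 in ACC cells and 590 in control cells (log2 fold change -0.45, limma adjusted p = 1.77e-05). LINC02086 fell while HOXB7 was higher by 0.23 on the log2 scale (limma adjusted p = 0.00189), and LINC01914 fell while PKDCC, a secreted kinase gene 113 kb away, was higher by 0.74 (limma adjusted p = 1.55e-09). LINC01376 was higher while OSR1, 3.42 kb away, was lower (log2 fold change -0.34, limma adjusted p = 0.0117). LINC01978 was higher while TBC1D16, 6.3 kb away, was slightly lower (log2 fold change -0.11, limma adjusted p = 0.0204).

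Neighbours that were called beside members that were not numbered 11, and these were chosen for the text after their values were seen. Of the 168 neighbours 12 were called, a share near the 6.7% of protein-coding genes with a mean of at least 10. PARM1, 31.6 kb from LINC02562, had means of 1021 in ACC cells and 93.0 in control cells, a log2 fold change of 3.46 (limma adjusted p = 1.36e-14). LINC02562 had 46.6, 37.6 and 36.8 counts in ACC cells and 22.2, 17.8 and 19.9 in control cells, without overlap and just under 2-fold (log2 fold change 0.98, limma adjusted p = 0.00108). KRT80, a keratin gene that overlaps LINC00592 on the opposite strand, was lower, at 1573 in ACC cells and 3790 in control cells (log2 fold change -1.27, limma adjusted p = 5.77e-14), whereas LINC00592 had 22.4, 18.3 and 12.3 counts in ACC cells and 11.6, 16 and 15.2 in control cells and did not pass (limma adjusted p = 0.510). LINC00842 had 157, 179 and 191 counts in ACC cells and 364, 341 and 335 in control cells (log2 fold change -0.98, limma adjusted p = 3.63e-08), and ANXA8L1, 6.58 kb away, was lower with a log2 fold change of -1.22 (limma adjusted p = 1.80e-09). ANXA8L1 has near-identical copies on the same chromosome, so its reads may be split among them. LINC02084 was lower together with EOMES, a T-box transcription factor gene 1.94 kb away, at log2 fold changes of -0.84 (limma adjusted p = 0.0139, and 0.0802 without Control replicate 1) and -1.20 (limma adjusted p = 9.52e-05). With DESeq2 the adjusted p of LINC02084 was 0.0725.

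Divergent pairs were examined after the data had been seen. They were taken as a member and a coding gene that start within 1000 bases of each other on opposite strands. Overlap was allowed, as in LINC00894 with CXorf40B, LINC01006 with RNF32 and LINC01481 with CNOT2, where the reads of the genes cannot be told apart. There were 14 such pairs, and in 5 both genes were higher at the adjusted p, in 1 they passed in opposite directions, and in 10 the log2 fold changes had the same sign. In these pairs 7 members and 10 coding genes passed, where 43.2% of all members and 56.7% of protein-coding genes with a mean of at least 10 did. LINC01184 starts 594 bases from SLC12A2, the sodium, potassium and chloride cotransporter NKCC1, and its promoter is the fourth sequence printed above. LINC01184 had 907, 940 and 978 counts in ACC cells and 612, 669 and 581 in control cells (log2 fold change 0.60, limma adjusted p = 1.14e-07). SLC12A2 had 7771, 7575 and 8332 counts in ACC cells and 2900, 2998 and 2452 in control cells (log2 fold change 1.51, limma adjusted p = 3.44e-13). Both genes of this pair were higher in every ACC library than in every Control library. LINC01137 and ZC3H12A, the RNase Regnase-1, start 148 bases apart and had log2 fold changes of 0.39 (limma adjusted p = 1.52e-04) and 0.28 (limma adjusted p = 0.00158).

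The other 3 pairs in which both genes were higher were LINC00893 with CXorf40A, at log2 fold changes of 0.93 and 0.38, LINC01547 with FAM207A, at 0.93 and 0.18, and LINC00894 with CXorf40B, at 0.86 and 0.34. The adjusted p of LINC00893, 0.0132, was 0.0684 without ACC replicate 2, 0.0582 without ACC replicate 3 and 0.0579 without Control replicate 3 (limma). In other pairs, such as ZFP36L2 with LINC01126, the coding gene passed and the member did not. ZFP36L2, an RNA-binding protein gene that promotes mRNA decay, had 5595, 5734 and 5811 counts in ACC cells and 2320, 2439 and 2017 in control cells (log2 fold change 1.34, limma adjusted p = 4.74e-13). LINC01126, 604 bases from it, averaged 13.3 counts in ACC cells and 11.5 in control cells and did not pass (log2 fold change 0.19, limma adjusted p = 0.642). In the pair that passed in opposite directions, LINC01089 was lower and SETD1B, a histone methyltransferase gene whose start lies 103 bases away, was higher by 0.16 on the log2 scale (limma adjusted p = 0.00939).

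Members also lay beside each other, and 12 pairs of members were within 200 kb, a limit set after the data had been seen. LINC00706 and LINC00707 lie 0.369 kb apart on chromosome 10 on opposite strands and moved in opposite directions. LINC00706 had 20.5, 18.3 and 16.4 counts in ACC cells and 6.75, 7.11 and 4.75 in control cells (log2 fold change 1.44, limma adjusted p = 0.00109), too few reads for a call, whereas LINC00707 was called lower at -1.06. LINC01116 and LINC01117 overlap on opposite strands on chromosome 2 and were both lower, at -0.88 and -1.12 on the log2 scale, and LINC01978 and LINC01979 overlap on chromosome 17 and were both higher, at 2.03 and 0.83. LINC00706, LINC01117 and LINC01978 reached a mean of 10 only through the group in which they were higher. LINC01979, with an adjusted p of 0.0243 (limma), was at 0.0907 without ACC replicate 2, 0.0626 without ACC replicate 3, 0.117 without Control replicate 2 and 0.0508 without Control replicate 3. With DESeq2 the adjusted p of LINC01979 was 0.0986. Among the 12 pairs, 4 had log2 fold changes of the same sign.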

How the data were processed

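RNA of 6 A549 cultures was sequenced as polyadenylated libraries, and each sample's group and replicate number were read from its title in the labels. The authors trimmed reads with Cutadapt, aligned them to GRCh38 with STAR 2.4.2a, counted them per gene with htseq-count and used DESeq2, and the signal values they deposited are counts divided by DESeq2 size factors. The deposited table also holds fold changes and p-values, raw and adjusted, of the authors' own comparison, which were not used. Reads per gene were recovered, since 100% of positive values lay within 0.1 read of a whole number.

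For genes whose normalized counts summed to 10 or more, log2(value + 1) was tested with limma 3.58.1 (mean-variance trend, R 4.3.3), and p-values were adjusted by the Benjamini-Hochberg method over all 19318 genes. Fold changes on this scale understate changes of low counts. On recovered reads, edgeR 4.0.16 called 9 members higher and 8 lower. The test was checked on simulated data. Alternatives were DESeq2 1.42.0, other scalings, filters, pseudocounts, thresholds, a replicate block and leaving out each library. Classes, positions and neighbours are from GENCODE 44, a later annotation than the one used for counting, and lengths are the union of its exons. Promoters are from RefSeq.

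Named genes were the called members, the 10 with the highest mean, members of the lists of regulatory roles and small proteins, rows around the threshold and their nearest coding genes. Members, lists and rules were chosen with earlier results of these data known. LINC00888, the named lncRNAs without a LINC number, the divergent and adjacent pairs and the ranks of libraries were added after the values were seen.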

Additional observations from a re-analysis of the deposited data

How the results depend on the processing

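The counts of called members were 7 higher and 8 lower, and under other tests, scalings, filters and pseudocounts they were 5 to 9 higher and 8 to 9 lower. A fold threshold of 1.5 gave 25 higher and 13 lower, and requiring a mean of 30 left 2 higher and 6 lower, by construction. Leaving out 1 library at a time gave 5 to 14 called higher and 7 to 9 called lower. The count of 14 arose without Control replicate 1, which added LINC00543, LINC00605, LINC00893, LINC00894, LINC01138, LINC01979 and LINC02562, and the cause was not tested. At the adjusted p alone the counts were 39 to 45 higher and 20 to 24 lower without 1 library, and 39 and 18 with DESeq2. Replicate numbers did not pair the samples, with correlations of -0.06, -0.01 and -0.004 between same-numbered libraries, and a replicate block gave 7 called higher, 8 called lower, 48 higher and 25 lower at the adjusted p. It moved LINC00665 past the adjusted p and LINC00667 out of it. Directions were followed only for the 44 members named by the rules above, and not for the other members. Among the named members, directions reversed for some near 0 when 1 library was left out, with log2 fold changes from -0.0037 to 0.0626 for LINC00205, from -0.1202 to 0.2802 for LINC00342, from -0.0224 to 0.0608 for LINC00473 and from -0.0042 to 0.1035 for LINC00909, each lowest without Control replicate 3, and from -0.613 to 0.0746 for LINC01772, highest without Control replicate 1. None of these passed the test. Depth limits members under 30 counts most.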
